A study of Homo sapiens with 2 samples.

Results

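The cells described here are those of the MDAMB468 library, 1 of 2 triple negative breast cancer lines that the study profiled by Drop-seq. MDA-MB-468 is an established line grown from a metastatic effusion and is known for amplification of EGFR and for a basal-like keratin pattern. Of 1683 cell barcodes in all, 306 carried the MDAMB468 prefix. A barcode was left out when its sequence differed by 1 base from that of another MDAMB468 barcode with at least 5 times its UMIs (unique molecular identifiers, 1 per captured mRNA molecule). This removed 64 barcodes and left 242, called cells below. Among barcodes 1 base from a deeper one, those kept had at most 2.85 times fewer UMIs than the neighbour and those left out at least 10.8 times fewer. The second line, CAL51, serves only as a background for detection, over the 1346 of its barcodes whose sequence the MDAMB468 library did not hold (median 8635 UMIs, thinned to the same depth). No treatment was labelled for either line. Each line was 1 library, so there is no replicate culture, no test, and no error beyond counting error for any value given.

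Cells of a growing line differ in their mRNA with the phase of the division cycle and with programmes that switch on in few cells. Replication factors are made around S phase, replication-dependent histone mRNA is kept high only while DNA is copied, and kinases and spindle proteins accumulate toward mitosis. Basal-like breast lines also hold cells that lean toward a secretory epithelial or a mesenchymal-like pattern.

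The 242 cells held 5286032 UMIs over 23799 genes. A cell had between 2515 and 134213 UMIs, with a median of 14828.5. Since depth spanned that range, each cell was thinned at random to 2500 UMIs before spread was measured, and a value "per 2500" below is a gene's UMIs divided by the cell's own total and multiplied by 2500. At 2500 UMIs a cell had between 1208 and 1600 detected genes, with a median of 1368.5. The number at equal depth still followed the original total, with a Spearman rho of 0.58 across the 242 cells. Mitochondrial UMIs made up 3.53 to 11.98% of a cell. The barcode sequences of 31 cells also occurred in the CAL51 library. Besides, 6 cells lay within 1 base of another cell, always at base 12 of the barcode, and were kept by the rule.

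The 5 genes taken as markers of the line were present. KRT7, a keratin of simple epithelium, reached 953 CPM (UMIs per 1000000, 95% Poisson interval 927 to 979, for counting error only) and had a UMI in 240 of 242 cells. AZGP1, a secreted zinc-binding glycoprotein, had a UMI in 232 cells, EGFR in 224, the basal keratin KRT5 in 208 and FXYD3, a regulator of the sodium pump, in 199. Among markers of other cells, PTPRC, LYZ, COL1A2, COL3A1, PDGFRB, VWF and CDH5 had 0 UMIs, as did GPC3, BEX3 and APOC1 of the CAL51 line. A count of 0 allows up to 0.568 CPM (3 counts). The immune list summed to 7 UMIs, the fibroblast list to 24 and the CAL51 list to 18. KDR had 96 UMIs and GATA3, a luminal transcription factor, 375.

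The 50 most abundant genes held 19.39% of all UMIs (95% Clopper-Pearson interval 19.35 to 19.42%), and the 500 most abundant held 52.7%. In single cells the share of the first 50 ran from 13.8 to 26.0%, with a median of 20.4%. Of the 50, 10 were mitochondrial and 25 encoded ribosomal proteins. The mitochondrial 16S ribosomal RNA MT-RNR2 led with 100737 UMIs, 19057 CPM. Ribosomal protein genes together held 16.6% of UMIs.

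Outside these 2 classes the first place went to MALAT1, a nuclear long noncoding RNA, with 35505 UMIs or 6717 CPM. PTMA, the chromatin-associated prothymosin alpha, followed with 32938 UMIs, and FTH1, the ferritin heavy chain that stores iron, with 29997. The actin-binding thymosins TMSB4X and TMSB10 had 25167 and 20745 UMIs. PABPC1, which binds poly(A) tails, had 25101 UMIs, the elongation factor EEF1A1 22250 and the peptidyl-prolyl isomerase PPIA 20820. The nucleolar proteins NPM1 and NCL had 17798 and 11662 UMIs, the chaperone HSP90AB1 14465 and the histone variant H3-3A 13616. TPT1 (13930), the ribosome-bound scaffold RACK1 (12211), the snoRNA host GAS5 (12073), the calcium-binding S100A2 (11790) and ACTB (11391) completed the first 20.

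Among those 20, 3 genes sit close together near EGFR on the short arm of chromosome 7. In GENCODE v29 on GRCh38, EGFR spans chr7:55019021-55211628. SEC61G, a subunit of the ER translocon, lies at chr7:54752250-54759974 and had 17981 UMIs. CCT6A, a chaperonin subunit, lies at chr7:56051630-56063989 and had 17679 UMIs. CHCHD2, a mitochondrial protein, lies at chr7:56101569-56106576 and had 15353 UMIs. EGFR itself had 2420 UMIs, or 458 CPM. SEC61G had a UMI in 241 cells, and at 2500 UMIs was detected in 98.5% of MDAMB468 cells and 39.5% of CAL51 cells.

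**Figure D1:**
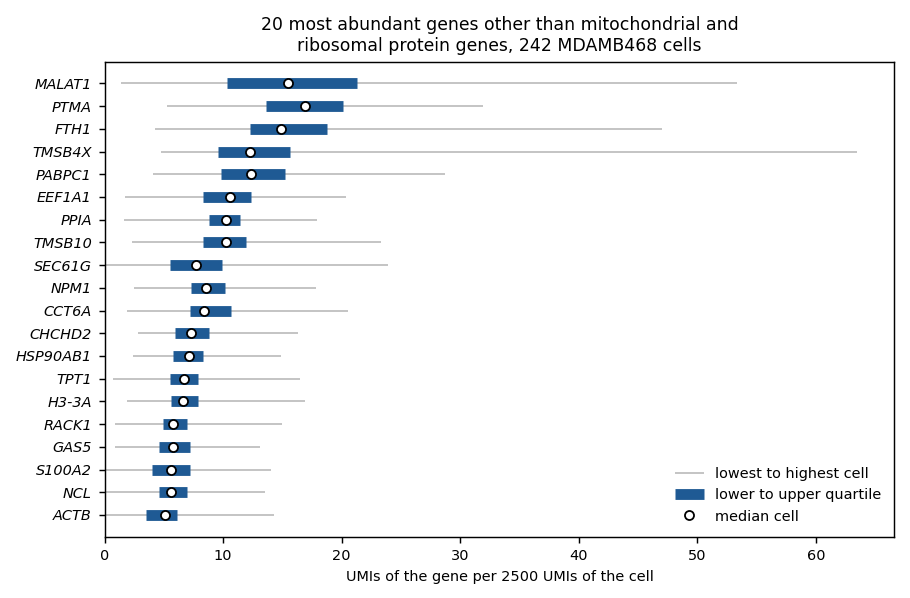
UMIs per 2500 of the 20 most abundant genes other than mitochondrial and ribosomal protein genes, over 242 cells. The bar spans the quartiles, the circle is the median cell and the thin line runs from the lowest to the highest cell. MALAT1 spans the widest quartiles (10.4 to 21.3), PPIA narrow ones (8.82 to 11.4), and the highest cell of TMSB4X lies far out at 63.5.

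Abundant genes differed in how evenly cells held them. PPIA was even, with quartiles of 8.82 and 11.4 per 2500 and a variance between cells close to its mean. MALAT1 was uneven, at 1.42 in the lowest cell, 15.5 in the median and 53.4 in the highest. Several abundant genes followed the depth of the cell. The Spearman rho with total UMIs was −0.47 for MT-RNR2, −0.45 for RPS2, −0.44 for PTMA and −0.39 for FTH1, whereas it was 0.01 for MALAT1 and 0.35 for ACTB. The part of depth in the spread of these genes was not tested.

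Spread was measured as the Fano factor, variance over mean of UMIs between cells at 2500 UMIs, which is 1 when cells differ by counting alone. The Fano factor was divided by the median of the 100 genes nearest in mean to give a variability ratio. Of 3869 genes with a mean of at least 0.1 UMIs, 52 (1.34%) had a ratio of at least 1.5 and are called variable below. The median Fano factor was 1.05, so that most genes scattered little more than counting gives at this depth. Without the 1 cell in which each gene was highest, 40 genes were called, all of them among the 52. For this, the minimum mean and the median of the nearest genes were not computed again.

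**Figure D2:**
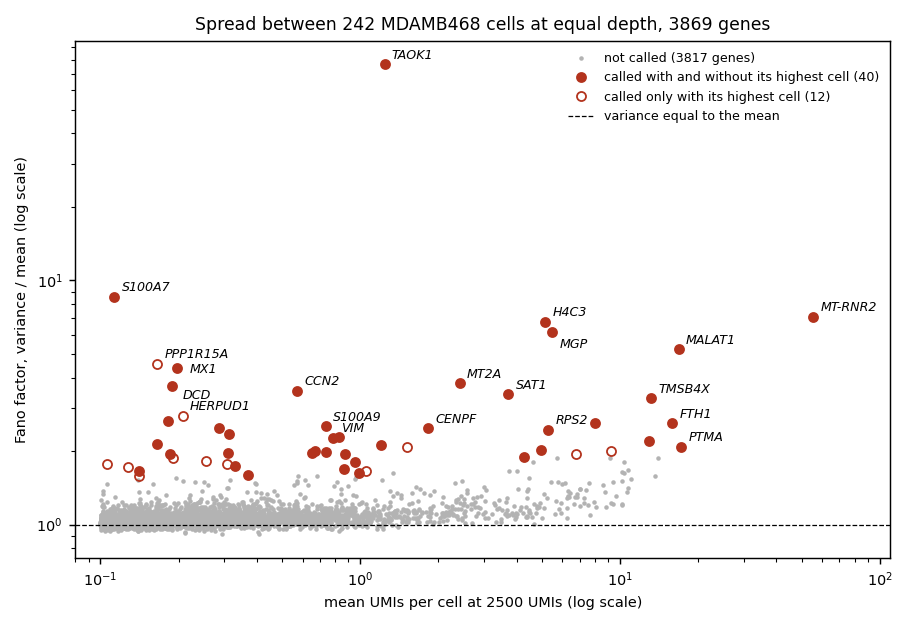
Fano factor against mean UMIs at 2500 UMIs for 3869 genes, both on log scales, with 52 called genes in red and open circles for those called only with their highest cell. Most genes lie near the dashed line of counting noise, and TAOK1 stands alone at 76.7.

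Histone genes varied across many cells. H4C3, a core histone H4 gene of the chromosome 6 cluster (chr6:26103876-26104310), had 0 UMIs per 2500 in its lowest cell, 2.28 in the median and 31.7 in the highest. Its quartiles were 0.783 and 8.99, so that a broad upper set of cells stood well above a lower set, and the ratio was 5.53. The linker histones H1-3, H1-4 and H1-1 had ratios of 1.87, 1.84 and 1.83. Of 44 histone genes in the matrix, 6 had enough UMIs to be tested. Of these 6, 4 were called, where 1.34% of all genes were. Their median ratio was 1.84 against 1.0 over all tested genes. The lowest of them, H1-2, had a ratio of 1.13. H4C3 is 1 of several near-identical H4 genes, so its count is uncertain where reads fit more than 1 copy.

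Genes of mitosis formed a second variable set. CENPF, a kinetochore protein, had a ratio of 2.22 and rose from 0 in the lowest cell through 1.26 in the median to 10.2 per 2500 in the highest. PTTG1, or securin, an inhibitor of sister chromatid separation, had a ratio of 1.94. TOP2A, the topoisomerase that untangles chromosomes, had 1.67, the proliferation antigen MKI67 1.56, cyclin B1 (CCNB1) 1.52 and the Cdk-binding CKS2 1.51. ARL6IP1, an ER-shaping protein, had 1.79. With another seed CCNB1 had 1.496 and CKS2 1.48, just below the call. Of 46 genes of the G2/M list tested, 5 were called, where 1.34% of all genes were. Of 29 S phase genes tested 0 were called, which is near that share. CLSPN, an adaptor of the replication checkpoint, was highest at 1.26 and the nuclease FEN1 lowest at 0.99.

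Secreted and antimicrobial genes of epithelium also varied, some of them with few high cells. S100A9, a calcium-binding subunit of calprotectin, had 0 per 2500 in the lowest cell, 0.358 in the median and 7.98 in the highest, and its ratio was 2.35. Its partner S100A8 had a median of 0, a highest value of 6.69 and a ratio of 2.38. S100A7, psoriasin, had a UMI in 29 cells, and the 10 highest cells held 81.9% of its 249 UMIs. A single cell of 18169 UMIs carried 103 of them, together with 58 of S100A9 and 27 of S100A8. The ratio of S100A7 was 8.32, and 3.03 without that cell. Its mean at 2500 UMIs was 0.113, and that cell alone had 14.2 per 2500. S100A7 passed the minimum mean of 0.1 only through that cell, and the minimum was not applied again. S100A9 had a UMI in 188 of 242 cells and in 38.6% of cells at 2500 UMIs, against 0% of CAL51 cells at that depth. DCD, the antimicrobial dermcidin, had a UMI in 43 cells with 73.2% of its UMIs in 10 cells, and a ratio of 3.54. The defensin DEFB1 had 1.65, and 1.35 without its highest cell. Not all of these genes were held by few cells. The 10 highest cells held 38.3% of S100A8 UMIs, 19.6% of S100A9 and 11.7% of DEFB1. For the mitotic genes CCNB1 and CENPF that share was 18.1 and 14.8%. Of 11 tested genes of the secretory list, 4 were called, against 1.34% of all genes. Without each gene's highest cell 3 were called, S100A7 among them. In that list CCL28, a mucosal chemokine, was lowest at 1.01.

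MGP, a secreted inhibitor of calcification, was the most variable of the abundant secreted genes. It had 10612 UMIs in 236 cells, with 0 per 2500 in the lowest cell, 4.06 in the median and 40.5 in the highest, and a ratio of 4.98. At 2500 UMIs it was detected in 90.4% of MDAMB468 cells and in 0.198% of CAL51 cells. RARRES1, a retinoid-responsive membrane protein, had a ratio of 2.11 and was detected in 44.2% of cells, against 1.26% in CAL51. MMP7, a secreted protease, had 2.23 and a UMI in 102 cells. IGFBP3 and IGFBP5, which bind insulin-like growth factors, had 1.87 and 1.74, and IGFBP5 fell to 1.48 without its highest cell.

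Vimentin (VIM), the mesenchymal intermediate filament, had 0 per 2500 in the lowest cell, 0.463 in the median and 9.47 in the highest, with a ratio of 2.10. Its quartiles were 0 and 1.01. Of 10 genes tested on the mesenchymal list, 2 were called, where 1.34% of all genes were, and 1 without each gene's highest cell. S100A4 was the other one called, at 1.52, and ANXA1 was lowest at 1.04. S100A4 lost the call with another seed (1.41), without its highest cell (1.43), without cells above 60000 UMIs (1.47), without doublet calls (1.43) and with the left-out barcodes kept (1.41). Basal and stress keratins KRT81 (1.81), KRT16 (1.71) and KRT6B (1.60) were called, 3 of 7 tested, where 1.34% of all genes were. Without each gene's highest cell KRT81 had 1.34 and KRT16 1.44, which left 1 call. KRT5 had 1.45. Simple keratins were below the threshold, from 1.11 for KRT7 to 1.49 for KRT19. CCN2, a matricellular target of YAP, had a ratio of 3.29, whereas CCN1 of the same family had 1.04. SAT1, which acetylates polyamines, had a ratio of 2.91 with 0, 3.08 and 17.3 per 2500 in the lowest, median and highest cell. AKR1C2, a ketosteroid reductase, had 1.64.

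Several metabolic and housekeeping lists had no called gene, which is near the 1.34% of all genes for lists of this size. The ferritin and NRF2 list differed, with 2 of 10 tested genes called, also without each gene's highest cell. FTH1 was its highest at 2.01. None of 12 tested glycolysis genes (median ratio 1.01), 16 cholesterol genes (1.02), 7 genes of the serine and ATF4 list (1.02), 11 heat shock genes (1.15), 7 epithelial surface genes (1.06) and 5 MHC class I genes (1.13) was called. HSPA5, the ER chaperone, came nearest at 1.48. Among 82 ribosomal protein genes the median ratio was 0.96 and RPS2 alone was called, at 2.0. Of 20 mitochondrial genes 3 were called, MT-RNR2 at 5.49, MT-RNR1 at 1.60 and MT-ND1 at 1.504. MT-ND1 lost the call with another seed (1.42), without its highest cell (1.36), without doublet calls (1.39) and with the left-out barcodes kept (1.23). None of 2 NF-kB and chemokine genes, 2 hypoxia genes and 6 stress and apoptosis genes with enough UMIs was called.

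**Figure D3:**
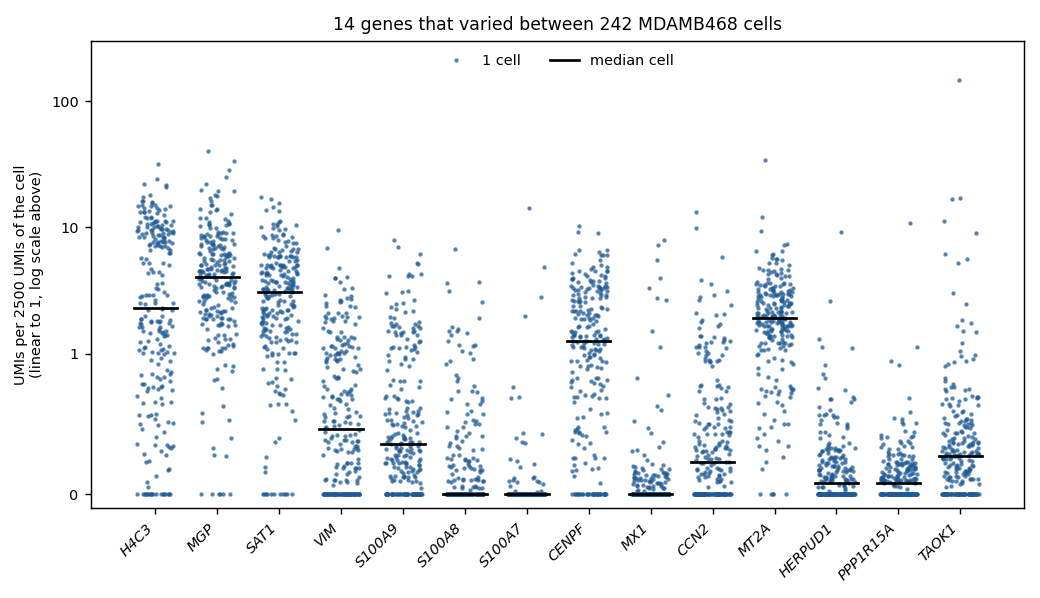
UMIs per 2500 of 14 variable genes in each of 242 cells (points) with the median cell (bar), on an axis that is linear to 1 and logarithmic above. H4C3 spreads over many cells, while TAOK1 (147), PPP1R15A (10.8) and HERPUD1 (9.23) each have 1 far cell.

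Part of the spread lay in single cells. TAOK1, a MAP kinase kinase kinase, had 227 of its 1252 UMIs in 1 cell of 3848 UMIs, 147 per 2500, next to 16.95 in the second cell and 0.272 in the median. Its ratio was 70.6, and 5.94 without that cell. Its 10 highest cells held 48.3% of its UMIs. In a cell of 8943 UMIs the metallothioneins MT2A and MT1E, which bind zinc and copper, had 123 and 56 UMIs, the ER-stress gene HERPUD1 33, the ER chaperone HSPA5 26, SDF2L1 15 and DDIT3 (CHOP) 7. The same cell held the highest TMSB4X value of the line, 63.5 per 2500. Without it the ratio of MT2A went from 3.32 to 1.69 and that of HERPUD1 from 2.69 to 1.17, below the call. These cells were singled out after their values were seen.

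A single cell of 68673 UMIs carried nearly all interferon mRNA of the library. It held 210 of 219 UMIs of interferon beta (IFNB1) and 299 of 311 of interferon lambda 1 (IFNL1). The near-identical IFNL2 and IFNL3, whose reads may be split between them, had 190 UMIs each, of 196 and 194. The 241 other cells had 9 IFNB1 UMIs, spread over 8 cells. IFIT2, IFIT1, IFIT3 and OASL, antiviral genes, had 488, 225, 158 and 142 UMIs there, or 96.1, 77.9, 78.2 and 93.4% of all their UMIs. The chemokines CXCL10 and CCL5 had 97 UMIs each, of 131 and 103. PPP1R15A (GADD34), a phosphatase subunit that reverses translational arrest, had 297 of 550. Its ratio of 4.38 fell to 0.95 without this cell. Of 8692 genes with at least 50 UMIs, 12 (0.138%) had over 50% of them in 1 cell, and for all 12 it was this cell. It held 53 KRT7, 42 KRT5 and 20 EGFR UMIs and 0 of GSTP1, BEX3 and GPC3, the CAL51 markers.

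The sequence of this barcode was 1 of the 31 that the CAL51 library also held. The CAL51 barcode had 4658 UMIs, with 10 of IFNB1, 50 of IFNL1 and 38 of IFIT2, and 0 KRT7, 2 KRT5 and 15 GSTP1 UMIs. The 1346 CAL51 barcodes with no shared sequence had 1 IFNB1 and 10 IFNL1 UMIs in all. The left-out barcode 1 base away, of 2676 UMIs, had 11 IFNB1, 16 IFNL1 and 36 IFIT2 UMIs. How these 3 barcodes came to share the transcripts was not tested.

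Interferon-induced genes were also read in other cells. MX1, a GTPase that blocks viruses, had a UMI in 78 cells and a ratio of 4.21, with 0 per 2500 in the median cell and 8.02 in the highest. The ubiquitin-like ISG15 had a ratio of 2.57 and a UMI in 92 cells. Of the 10 highest cells of MX1, 8 were among the 10 highest of ISG15. After the interferon-holding cell, the 9 cells with the largest share of UMIs in the 22-gene interferon list had 0.394 to 1.32%, against a median of 0.123%. These 9 cells, of 4062 to 24396 UMIs, had 128 MX1 UMIs and 0 of IFNB1, IFNL1, IFNL2 and IFNL3, of which the 232 cells other than these and the interferon-holding cell had 31, so that a 0 in 9 cells says little. The interferon-holding cell had 5 MX1 UMIs. At 2500 UMIs, MX1 was detected in 8.16% of MDAMB468 and 0.0495% of CAL51 cells. Of 8 interferon-list genes tested, 2 were called, MX1 and ISG15, where 1.34% of all genes were. Without their highest cell their ratios were 3.69 and 2.34.

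Correlation between genes was read in the 153 cells with at least 10000 UMIs, thinned to that depth, as Pearson r of log2(UMIs + 1). The values describe 1 library, whose cells share 1 culture and 1 preparation. Over 5377560 pairs of 3280 genes the median r was 0.0013, and the 1st and 99th percentiles were −0.13 and 0.13. An r of at least 0.4 was found for 1046 pairs (0.0195%), and an r of −0.4 or lower for 16 (0.000298%). Of the 1046 pairs, 249 joined 2 ribosomal protein genes and 41 joined 2 mitochondrial genes. A gene of the S, G2/M or histone lists was in 642, and 354 had such genes on both sides. The 178 genes with such a partner were grouped by mean r, and 156 fell into 5 groups of at least 5 genes.

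Leaving aside pairs of 2 mitochondrial or 2 ribosomal protein genes, the tightest pairs were histones. H4C3 and H1-3 had an r of 0.77, H1-1 and H4C3 0.73, H1-1 and H1-3 0.72, and H4C3 and H1-4 0.70. All 10 pairs among the 5 histone genes tested were above 0.4, with a median r of 0.69. Their group of 18 genes also held RRM2, the ribonucleotide reductase subunit that makes deoxynucleotides, PCLAF, a PCNA-binding protein, DUT, which removes dUTP, and GMNN, the geminin that blocks relicensing. RRM2 and H4C3 had an r of 0.65. The H1 genes are shown with the 250 bases before their RefSeq start (GRCh38.p14), because their levels moved together across cells and H1 genes are known for an upstream AAACACA element. Capitals mark AAACACA and CCAAT on either strand.
H1-1 promoter, chr6:26017788-26018037 (- strand): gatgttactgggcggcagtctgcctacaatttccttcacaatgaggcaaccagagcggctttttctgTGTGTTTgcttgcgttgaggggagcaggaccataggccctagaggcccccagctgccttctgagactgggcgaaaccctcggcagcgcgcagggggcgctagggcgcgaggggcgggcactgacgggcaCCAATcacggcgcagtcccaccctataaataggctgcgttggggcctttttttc
H1-3 promoter, chr6:26234988-26235237 (- strand): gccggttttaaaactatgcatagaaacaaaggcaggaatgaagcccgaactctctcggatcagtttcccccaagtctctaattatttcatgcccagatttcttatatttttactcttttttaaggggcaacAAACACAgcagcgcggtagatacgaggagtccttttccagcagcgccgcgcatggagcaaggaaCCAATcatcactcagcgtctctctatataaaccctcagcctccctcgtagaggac
H1-4 promoter, chr6:26156079-26156328 (+ strand): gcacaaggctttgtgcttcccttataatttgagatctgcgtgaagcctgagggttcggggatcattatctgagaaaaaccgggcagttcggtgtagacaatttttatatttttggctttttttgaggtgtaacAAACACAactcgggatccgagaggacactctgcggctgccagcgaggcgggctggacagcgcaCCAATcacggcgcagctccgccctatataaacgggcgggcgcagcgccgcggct
All 4 H1 genes of the group (H1-5 is not printed) had both strings in these 250 bases. AAACACA was in 4.82% and both were in 1.54% of the 35116 promoters of the table at the same length. A match of letters is a description and shows no binding.

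The largest group, 63 genes, held genes of mitosis, 37 of them on the G2/M list of 44 tested. TOP2A had 54 partners at an r of at least 0.4, CKS2 49 and the kinetochore protein NDC80 48. The mitotic kinase CDK1 and TOP2A had an r of 0.68, and TOP2A and NDC80 0.67. TOP2A and the ubiquitin-conjugating enzyme UBE2C had 0.65, as did CENPF and the spindle protein DLGAP5. The 5 genes closest to CCNB1 were ARL6IP1 (0.61), PTTG1 (0.59), DLGAP5 (0.58), CKS2 (0.56) and CENPF (0.55). Over the 946 pairs of the G2/M list the median r was 0.34, and 313 pairs reached 0.4. The promoters of 4 genes are shown because mitotic genes are known for a CHR element, TTTGAA, beside CCAAT boxes. Capitals mark TTTGAA and CCAAT on either strand, which can overlap by at most 1 base.
TOP2A promoter, chr17:40417897-40418146 (- strand): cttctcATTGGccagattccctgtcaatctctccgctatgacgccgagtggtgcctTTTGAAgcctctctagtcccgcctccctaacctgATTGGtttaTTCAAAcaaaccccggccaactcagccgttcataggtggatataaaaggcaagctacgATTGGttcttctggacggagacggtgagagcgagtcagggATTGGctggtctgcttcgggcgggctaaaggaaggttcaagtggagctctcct
CDK1 promoter, chr10:60778228-60778477 (+ strand): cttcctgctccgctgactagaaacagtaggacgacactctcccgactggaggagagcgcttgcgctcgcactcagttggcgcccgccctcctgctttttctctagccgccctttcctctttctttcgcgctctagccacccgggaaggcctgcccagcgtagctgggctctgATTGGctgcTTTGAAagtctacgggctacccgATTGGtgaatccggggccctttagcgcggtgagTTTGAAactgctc
CKS2 promoter, chr9:89310945-89311194 (+ strand): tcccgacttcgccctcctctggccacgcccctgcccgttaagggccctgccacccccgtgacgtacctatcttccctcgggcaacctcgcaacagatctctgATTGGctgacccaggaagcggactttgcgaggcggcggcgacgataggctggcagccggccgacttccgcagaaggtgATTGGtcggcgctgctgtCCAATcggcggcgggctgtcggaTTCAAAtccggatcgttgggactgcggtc
CCNB1 promoter, chr5:69166900-69167149 (+ strand): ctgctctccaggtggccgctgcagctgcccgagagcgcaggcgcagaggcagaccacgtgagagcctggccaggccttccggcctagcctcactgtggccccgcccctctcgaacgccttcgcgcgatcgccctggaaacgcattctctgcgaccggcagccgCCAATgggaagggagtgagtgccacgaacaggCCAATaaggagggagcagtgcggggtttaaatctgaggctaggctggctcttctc
TOP2A, CDK1 (the second of its starts) and CKS2 held both strings, and CCNB1 held CCAAT without TTTGAA. Of the 63 genes, 53 were in the table, with 66 promoters. TTTGAA was in 51.5% of these and in 13.3% of all 35116, CCAAT in 71.2 and 32.0%, and both in 45.5 and 4.69%. In the ribosomal group the shares were 14.04% for TTTGAA and 26.3% for CCAAT over 57 promoters. No match in such a window says only that these letters are not there.

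A small group of 6 genes held PCNA, the sliding clamp of replication, the helicase subunits MCM3 and MCM6, CLSPN, GINS2 and FAM111B. All 6 of its promoters in the table, for 5 genes, held CCAAT and none held TTTGAA. Its genes ran against some genes of the mitotic group. The r was −0.53 for PTTG1 and PCNA, −0.51 for MCM6 and PTTG1 and −0.49 for CCNB1 and PCNA. Of the 16 negative pairs, 15 had a gene of the mitotic group on 1 side, and the last was S100A9 with VIM.

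The cycle genes formed a chain, in which neighbours were positive and the ends negative. PCNA had an r of 0.47 with H4C3, 0.38 with RRM2, 0.08 with CDK1, −0.15 with TOP2A and −0.49 with CCNB1. H4C3 had 0.52 with CDK1, 0.37 with TOP2A, −0.24 with CCNB1 and −0.33 with PTTG1. TOP2A had 0.41 with CCNB1 and 0.28 with PTTG1. By these values histones and RRM2 stood between PCNA and TOP2A, with CCNB1 and PTTG1 at the far end. MALAT1, on no cycle list, had an r of 0.42 with TOP2A. This r was 0.37 without cells whose sequence CAL51 shared and 0.39 without mitochondrial and ribosomal protein genes. In cells thinned to 5000 UMIs it was 0.34, and 0.29 at 2500 UMIs.

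**Figure D4:**
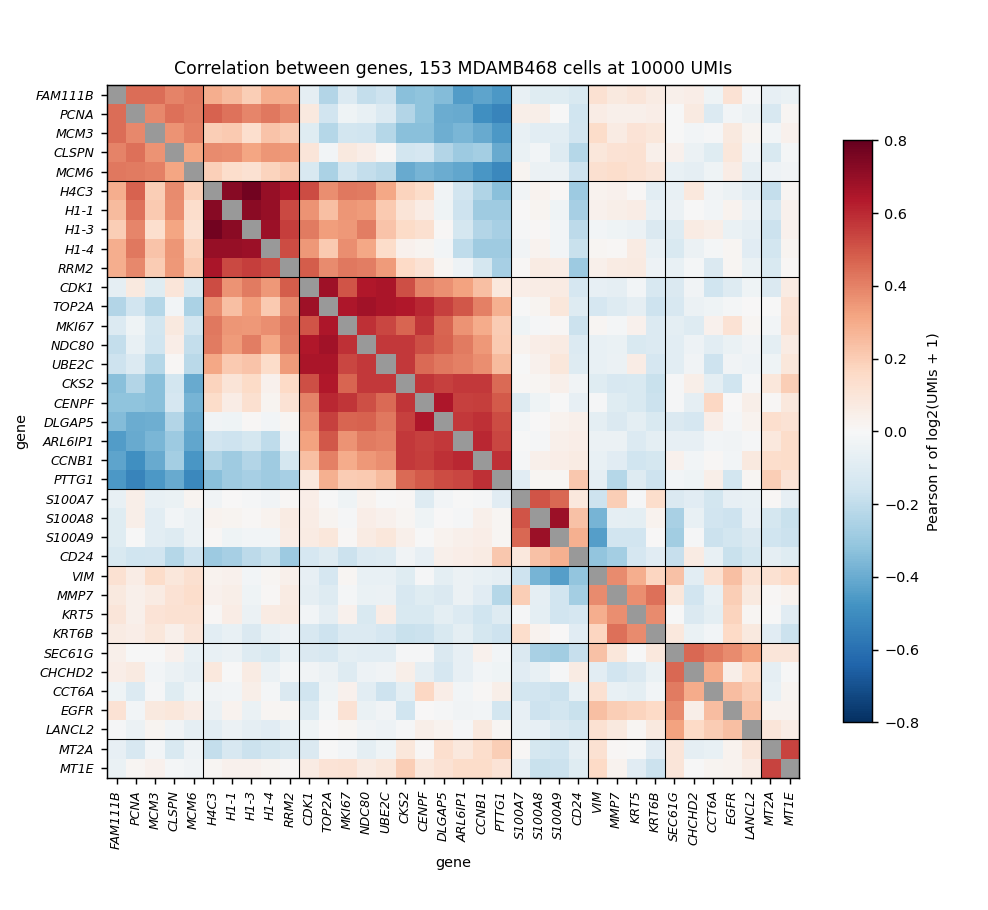
Pearson r between 36 genes in 153 cells at 10000 UMIs, red for positive and blue for negative, grey on the diagonal. The cycle genes in the upper left run from replication genes (top) to PTTG1, whose r with PCNA is −0.53; the smaller red blocks are S100A7, S100A8 and S100A9, then MMP7 and keratins, the genes near EGFR, and the metallothioneins.

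The summed cycle lists were read in all 242 cells. At 2500 UMIs the G2/M list had a lower quartile of 0.375%, a median of 0.771% and an upper quartile of 1.22% of UMIs. The ratio of quartiles was 3.26, where counting alone at that median gives 1.38. The S phase list had quartiles of 0.279 and 0.671% (2.41, counting 1.44), and the histone list 0.0485 and 0.528% (10.9, counting 1.67). S phase and histone shares had a Spearman rho of 0.62 across cells, and 0.68 in the 153 deepest. G2/M and histone shares had 0.32.

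**Figure D5:**
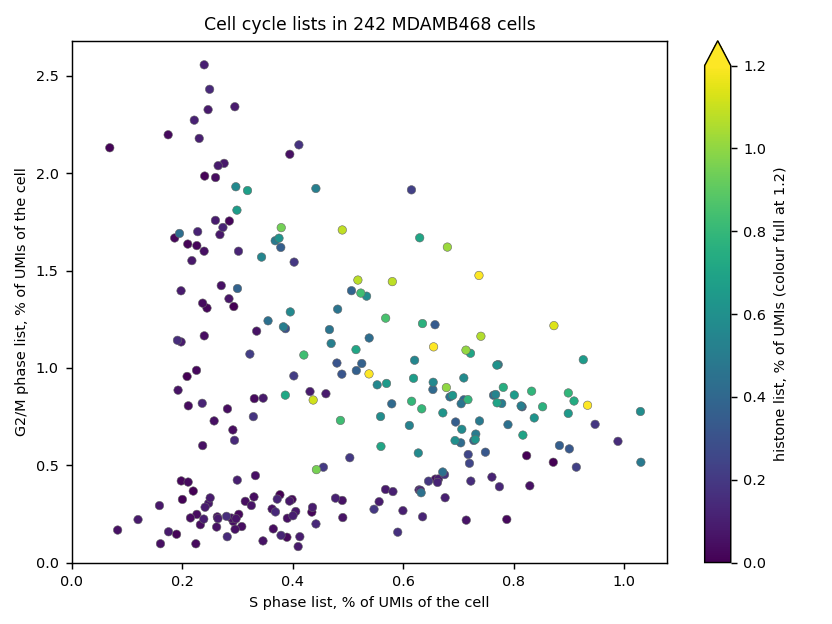
Share of each cell's UMIs in the S phase list (x), the G2/M list (y) and the histone list (colour) for 242 cells at their full depth. Cells low in both lists lie at the lower left with few histone UMIs, and S phase and histone shares had a rho of 0.62, with cells high in S phase genes and low in histones among them.

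Of the 1046 positive pairs, 404 held no gene of the S, G2/M or histone lists. These 404 include the 249 ribosomal and 41 mitochondrial pairs, and mitotic genes on none of the lists were not set apart. Pairs given below with an r under 0.4 are not among them. S100A9 and S100A8 had an r of 0.68, S100A7 and S100A8 0.50, and S100A9 and the epithelial transcription factor EHF 0.36. The Spearman rho of these pairs was 0.62, 0.37 and 0.36. S100A9 and VIM had an r of −0.44, and S100A8 and VIM −0.37. The former was −0.28 in cells thinned to 5000 UMIs and −0.22 at 2500 UMIs. The 10 highest cells of S100A9 and of VIM had no cell in common, which says little for 2 sets of 10 among 242 cells. S100A7 and VIM had an r of −0.17. Summed over genes, the secretory and mesenchymal lists had a Spearman rho of −0.16 across the 242 cells. VIM had 0.38 with MMP7, 0.34 with IGFBP3 and 0.29 with KRT5. KRT5 in turn had 0.38 with KRT6B, 0.38 with S100A2 and 0.37 with MMP7, and MMP7 and KRT6B had 0.44. The Spearman rho of MMP7 was lower, 0.28 with VIM, 0.30 with KRT5 and 0.35 with KRT6B. For KRT5 it was 0.38 with KRT6B and 0.41 with S100A2. The metallothioneins MT2A and MT1E had 0.54, and SAT1 and AKR1C2 0.37.

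The genes near EGFR also moved together in part. SEC61G had an r of 0.46 with CHCHD2, 0.42 with CCT6A, 0.38 with EGFR and 0.32 with LANCL2, a neighbour at chr7:55365448-55433742. EGFR had 0.25 with CCT6A and 0.24 with LANCL2 but 0.04 with CHCHD2. The Spearman rho was 0.37, 0.26, 0.24 and 0.27 for the 4 pairs of SEC61G, 0.14 for EGFR with CCT6A, 0.24 for EGFR with LANCL2 and −0.06 for EGFR with CHCHD2. EGFR had a Pearson r of 0.24 with VIM on chromosome 10 and 0.20 with MMP7 on chromosome 11. These are near its values with CCT6A and LANCL2. SEC61G had 0.24 with VIM and −0.28 with S100A9. SEC61G had a variability ratio of 2.0 and CCT6A 1.55, and EGFR had 1.17, CHCHD2 1.07 and LANCL2 0.97. CCT6A fell below the call with another seed (1.48), without its highest cell (1.498), with the left-out barcodes kept (1.28) and at 10000 UMIs (1.43). Copy number was not measured here.

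Ribosomal protein genes formed a group of 55 with 45 of the 81 tested, joined by PPIA, TMSB10, EEF1A1, TPT1, RACK1, FTH1 and the snoRNA hosts GAS5 and ZFAS1. The median r over 3240 ribosomal pairs was 0.24, although most of these genes were not variable. A group of 14 mitochondrial genes had a mean r of 0.38, with 0.66 between MT-RNR2 and MT-CO1 and 0.16 between MT-RNR2 and MT-RNR1. Ribosomal and mitochondrial shares are also read as signs of cell quality, and their part in these groups was not tested.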

How the data were processed

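UMI counts were used as deposited, whole numbers for each pair of gene and barcode. Read processing named STARsolo, per the submitters' processing notes. Its version, the genome build, the annotation and the authors' cell filter were not given in the sources used. Every barcode had at least 2501 UMIs in the deposited counts. Gene identifiers were named from a table of symbols, which matched 30730 of 30796. Members and gene lists were chosen with earlier results of these data known.

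Counts were thinned without replacement to 2500 UMIs (spread) or 10000 UMIs (correlation), with 20 seeded draws averaged. Genes needed a thinned mean of 0.1 UMIs for spread and 0.5 for correlation. Groups were made by average linkage cut at a mean r of 0.25. Scripts used Python 3.11.15, numpy 2.4.6 and scipy 1.17.1, and were tested on simulated data. Doublets were not removed. Scrublet in scanpy 1.11.5, at an expected rate of 0.05, called 3 of 242 cells, and the effect of leaving them out is given with the alternatives. The genes named are the 20 most abundant (also without mitochondrial and ribosomal protein genes), the 25 most variable, the genes of the 20 highest and 5 lowest pairs, each list's extremes, the markers, and the 5 nearest genes of KRT5, VIM, S100A9 and CCNB1. All others were picked after their values were seen, among them single cells, genes near EGFR and promoter strings. The ranking of pairs left out those of 2 mitochondrial or 2 ribosomal protein genes.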

Additional observations from a re-analysis of the deposited data

How the results depend on the processing

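No paired analysis was possible because each line was a single library. The number of variable genes changed with the thinning, which also changed the genes tested and the cells. It was 52 of 3869 at 2500 UMIs, 12 of 1701 at 1000 UMIs, 104 of 6053 at 5000 UMIs (208 cells) and 223 of 8418 at 10000 UMIs (153 cells), where 12, 51 and 49 of the 52 were called. It was 80 with the Fano factor set against counting alone and 25 at a ratio of at least 2. With satellite barcodes kept, with the stricter barcode filter, without cells above 60000 UMIs, without doublet calls, with other minimum means, without mitochondrial and ribosomal protein genes, or with another seed it lay between 37 and 72. Over 693 values of single genes under these alternatives, 622 stayed on their side of 1.5. The ratio of PPP1R15A fell below 1, to 0.96 without cells above 60000 UMIs. Chosen after seeing the data, leaving out its highest cell gave 0.95, and leaving out the 31 cells with a sequence shared with CAL51 gave 0.94. The latter gave 55 variable genes, 48 of them among the 52.

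The 1062 pairs past an absolute r of 0.4 became 93 at 5000 UMIs and 8 at 2500 UMIs, where fewer genes could be read (1703 and 817), and 3561 at a threshold of 0.3. Other alternatives gave between 774 (Spearman) and 1293 (without shared sequences). Of 128 values for 12 pairs followed through these, 19 values in 9 pairs crossed 0.4, and none changed sign. The share of the 50 most abundant genes was 19.43% with satellites kept, 19.9% without cells above 60000 UMIs, 20.2% without shared sequences, 15.2% without mitochondrial and ribosomal protein genes and 20.3% as a mean over cells. The G2/M and S phase lists were the 2 lists with a median of at least 5 UMIs and an upper quartile at least 2 times the lower, under all 5 sets of barcodes tried beside the main one.

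Depth limits the spread of rare genes most: at 2500 UMIs, genes below a mean of 0.1 UMIs were not read. Counts from 1 library give no error between cultures, and intervals cover counting error only.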

Other observations

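Some summed lists moved with or against each other across cells. Simple keratins and glycolysis genes had a Spearman rho of 0.51 across the 242 cells, and 0.39 in the 153 cells with at least 10000 UMIs. Simple keratins and the mesenchymal list had 0.45, and basal keratins and the mesenchymal list 0.36. Histone shares ran the other way, with −0.35 against simple keratins, −0.38 against the mesenchymal list and −0.30 against epithelial surface genes. The G2/M list had 0.35 with the cholesterol list and −0.31 with ribosomal protein genes. The interferon list and MHC class I had 0.36. All shares come from the same cells and sum to a fixed whole, and the part of that in these values was not tested. The simple keratin relation with the serine and ATF4 list, 0.29 over all cells, was 0.00 in the deeper 153.

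A cell of 10632 UMIs stood apart in composition. It had the lowest ribosomal protein share, 4.74%, where the next cell had 12.03%, together with 10.8% mitochondrial UMIs and the highest MALAT1 value, 53.4 per 2500 against a median of 15.5. Another cell of 28776 UMIs had the highest value of both MT-RNR2 (126 per 2500) and CENPF (10.2). The small noncoding BCYRN1 had 65 of its 671 UMIs in a cell of 28046 UMIs, and a variability ratio of 1.86. EIF3EP2, listed as a pseudogene copy of EIF3E, had 1.67 (1.35 without its highest cell), and its reads may be shared with the parent gene. These values were picked after they were seen.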
